A study of Phaseolus vulgaris with 2 samples.

Results

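The genes described here are the photosynthesis genes of common bean (Phaseolus vulgaris) that lie outside photosystem II assembly. They were chosen from the Gene Ontology (GO) terms that the deposited table gives for each gene. A gene was taken when any of its terms started with photosynthesis, and it was left out when it also had the term photosystem II assembly. Of 27197 genes, 222 had a photosynthesis term, 50 of these also had photosystem II assembly, and the remaining 172 genes are the subject of the text. No expression value entered this choice.

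In the light reactions of photosynthesis, chlorophyll-binding antenna proteins collect light and pass its energy to photosystem II and photosystem I, which are embedded in the thylakoid membranes of the chloroplast. Photosystem II takes electrons from water at its oxygen-evolving complex, and photosystem I passes them on to ferredoxin, so that NADPH and ATP become available for carbon fixation in the stroma. GO terms are assigned broadly, however, and a gene can have a photosynthesis term without coding for a part of this machinery.

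RNA-Seq was performed on aerial tissue of wild-type plants of cultivar Pinto Saltillo (PS). Control plants were watered throughout, and drought plants received no water for 2 weeks from 45 days of age. Tissue was pooled from 6 to 9 plants, and RNA was pooled by condition before sequencing. Gene expression is given as FPKM, the fragments per unit of transcript length and of library size, with 1 value per gene and condition.

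A label mentions more libraries per treatment than the 1 value per condition that the table holds, and 1 library per condition was therefore assumed. No difference therefore has a replicate check, no test was run, and a gene that is higher or lower in drought is higher or lower in these 2 libraries. Reads per gene are not listed beside the FPKM, so the depth behind each value is unknown and no interval was computed. The ratio of a gene is log2((drought FPKM + 1)/(control FPKM + 1)), and it was described for genes that reached 1 FPKM in control, in drought or in both. Of all genes, 19661 passed this limit, with a median ratio of -0.03. In bulk tissue, fewer cells of a type and less RNA per cell cannot be told apart.

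The photosynthesis genes were an abundant group, and their summed level was higher in drought. The sum of their FPKM was 30306 in control and 38661 in drought, which is 2.30% and 3.15% of the FPKM of all genes. The sum over all genes was 1319560 in control and 1228410 in drought, so the ratio of drought to control was 1.28 for the photosynthesis genes and 0.931 for the whole table. FPKM of at least 100 was reached by 51 photosynthesis genes (29.7%) in control, beside 5.45% of all genes, and by 59 in drought. The 10 genes with the highest mean held 49.4% of the group's FPKM in control and 47.0% in drought.

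Of the 172 genes, 156 passed the limit and 16 did not. Among those that passed, 149 reached FPKM of 1 in both libraries and 7 only in drought. The 16 that did not pass included 7 genes listed at 0 in both libraries. Chlorophyll-binding genes, the leaf genes that the table allows to be recognised, stood among the most abundant members in both libraries. The single gene of the table with the term ribulose-bisphosphate carboxylase activity, Phvul.004G073400, was listed at 0 in both. The 3 most abundant transcripts of the table have no GO terms, so no rubisco gene was checked.

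The shift of the group was broad and small. Its median ratio was 0.28, with quartiles at -0.06 and 0.64, beside -0.03 for all genes. Of the 156 genes, 111 (71.2%) had a ratio above 0, beside 48% of all genes. A level at least 2-fold higher in drought was found in 19 genes (12.2%), beside 11.7% of all genes, and a level at least 2-fold lower in 8 (5.13%), beside 6.6%. Both shares were near those of the table. At 4-fold, 3 genes (1.92%) were higher, beside 2.48% of all genes, and 1 gene (0.641%) was lower, beside 1.62%. The remaining 129 genes stayed within 2-fold. The 19 higher genes included some below 1 FPKM in control, which entered the count through their drought level alone. When each library had to reach the limit, 14 of 149 genes (9.40%) were 2-fold higher, beside 8.24% of all genes under this stricter rule. The 8 lower genes all remained (5.37%, beside 6.38%).

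**Figure D1:**
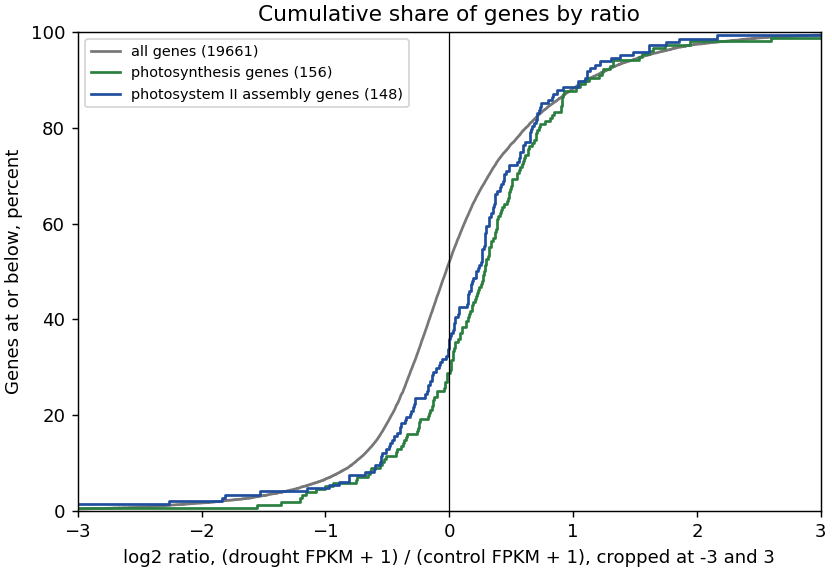
Cumulative share of genes (percent, vertical axis) against the log2 ratio of drought to control (horizontal axis, cropped at -3 and 3) for all 19661 genes, the 156 photosynthesis genes and 148 photosystem II assembly genes that passed the limit. The curve of the photosynthesis genes lies to the right of the curve of all genes around 0, with medians of 0.28 and -0.03, and the curves meet near 1.

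The members fall into 11 groups by their GO terms. For the counts past 2-fold given for each group, the shares of all genes are 11.7% higher and 6.6% lower. The antenna group held the largest share of the FPKM (37.1% in control and 33.1% in drought), followed by photosystem II (17.0% and 21.0%), carbon metabolism (14.2% and 12.8%) and photosystem I (10.1% and 13.1%). The summed FPKM of the members was greater by 8355 in drought, of which photosystem II genes made up 2980, photosystem I genes 2009 and antenna genes 1542. The genes for nutrient reservoir activity, which have no chloroplast term, made up 741. The difference was negative for ferric iron binding (-394), pigment and quinone synthesis (-32.0) and transcription factors (-22.9). The groups with a negative median ratio were the genes for ferric iron binding (-0.91) and the transcription factors (-0.15).

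**Figure D2:**
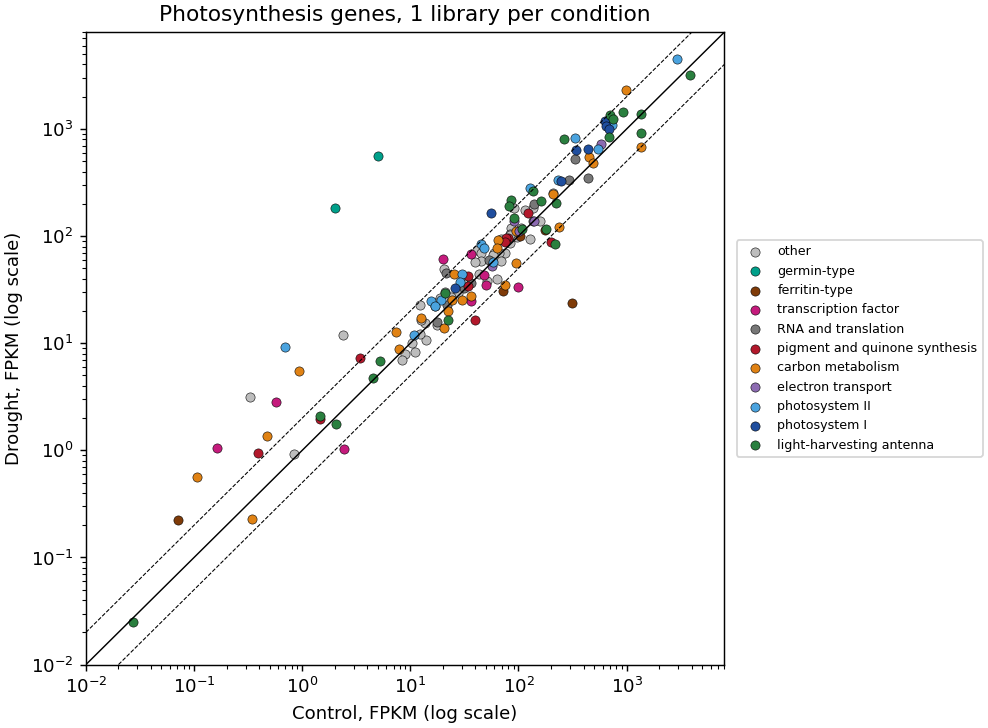
FPKM of each photosynthesis gene in the control library (horizontal axis, log scale) and in the drought library (vertical axis, log scale), coloured by role, for genes above 0 in both libraries. The solid line marks equal levels and the dashed lines a 2-fold difference; most genes lie between the dashed lines, and 2 genes of the nutrient reservoir group lie far above them at 565 and 182 FPKM in drought.

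**Figure D3:**
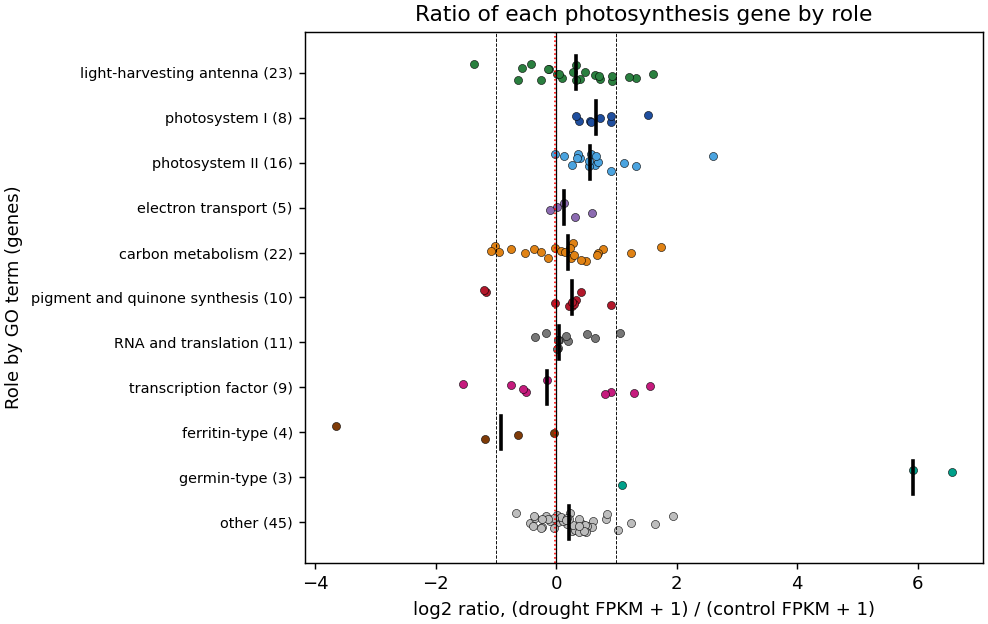
Log2 ratio of drought to control (horizontal axis) for each of the 156 photosynthesis genes that passed the limit, by role (vertical axis, number of genes in brackets). Points are genes, thick bars are medians of the role, dashed lines mark 2-fold differences and the dotted line is the median of all genes; the 8 photosystem I genes all lie above 0, and the 4 ferric iron binding genes all lie below it.

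The antenna group comprised 27 genes with terms for chlorophyll binding or light harvesting, and 23 of them passed the limit. Their median ratio was 0.32, 16 lay above 0, 3 were at least 2-fold higher in drought and 1 was at least 2-fold lower. The sum of the group was 11249 FPKM in control and 12791 in drought. Single genes went in both directions, so the group as a whole differed less than its members.

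The most abundant member in the control library was Phvul.002G196400 (chromosome 2, 35352124 to 35353122), annotated to light harvesting in photosystem II, with 3855 FPKM in control and 3221 in drought (ratio -0.26). The same list of terms was given to 9 other genes, of which 7 lie on chromosome 4 (Phvul.004G091600 to Phvul.004G093200). The 9 genes reached at most 22.5 FPKM, and Phvul.002G196400 held 99.1% of the set's FPKM in control and 99.0% in drought. Short reads from near-identical copies can be divided between genes, so the low values of this set are uncertain.

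Several abundant antenna genes were higher in drought. Phvul.008G285100 (chromosome 8, 59037981 to 59039588) had 261 FPKM in control and 803 in drought (ratio 1.61), the largest ratio of the antenna group. Phvul.007G113000, annotated to the photosystem II antenna complex and to nonphotochemical quenching, the release of excess light energy as heat, had 85.4 and 215 FPKM (ratio 1.32). Phvul.004G128200, which has both of these terms too, had 707 and 1339 FPKM (ratio 0.92). The other genes with both terms, Phvul.006G207300 with 137 and 262 FPKM (ratio 0.93) and Phvul.002G207500 with 162 and 213 (ratio 0.39), have identical lists of terms, and the former shares its locus with another gene. All 4 genes with this annotation were thus higher in drought, 1 of them past 2-fold. Phvul.001G242100 also passed 2-fold, from 81.5 to 190 FPKM (ratio 1.21). Phvul.010G002100 had 755 FPKM in control and 1246 in drought (ratio 0.72).

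For light harvesting in photosystem I, Phvul.004G071500 had 931 FPKM in control and 1449 in drought (ratio 0.64), whereas Phvul.010G121400, annotated to the photosystem I antenna complex, had 1359 and 1370 FPKM (ratio 0.01). These 2 genes were thus unlike in ratio at a similar level. The remaining member with this term, Phvul.009G260200, has the same list of terms as Phvul.010G121400. It had 223 FPKM in control and 205 in drought (ratio -0.12). Among the antenna genes that were lower in drought, Phvul.008G289700 had 1352 FPKM in control and 916 in drought (ratio -0.56). Phvul.002G264600 (chromosome 2, 43038692 to 43039884), a chlorophyll-binding gene, had 217 and 84.1 FPKM (ratio -1.36) and was the single antenna gene past 2-fold in this direction.

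All 8 photosystem I genes were higher in drought, with ratios between 0.34 and 1.53 and a median of 0.65, and the sum of the group was 3064 FPKM in control and 5073 in drought. These genes are annotated to the photosystem I complex, which ends the light-driven electron path. Phvul.005G004000 (chromosome 5, 303154 to 304019), with terms for photosystem I stabilization and NADP+ reduction, had 627 FPKM in control and 1182 in drought (ratio 0.91). Phvul.002G269400, annotated to the thylakoid lumen and to calmodulin binding, had 648 and 1076 FPKM (ratio 0.73). Phvul.003G186300, of the photosystem I reaction center, had 684 and 1010 FPKM (ratio 0.56). These 3 abundant genes stayed within 2-fold.

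The only photosystem I gene past 2-fold was less abundant: Phvul.002G140800 (chromosome 2, 27558799 to 27560400) had 55.9 FPKM in control and 163 in drought (ratio 1.53). The ratio was smallest in Phvul.007G046800, the least abundant of the 8, with 25.7 and 32.7 FPKM (ratio 0.34).

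The photosystem II group held 16 genes that are annotated to the complex without the exact term photosystem II assembly, and all of them passed the limit. Their median ratio was 0.57, and 15 of the 16 lay above 0. The sum was 5155 FPKM in control and 8135 in drought, and 3 genes were at least 2-fold higher. The exception was Phvul.009G134500, at 58.0 and 57.1 FPKM (ratio -0.02).

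Phvul.005G055200 (chromosome 5, 7207936 to 7209787), annotated to assembly of the oxygen-evolving complex, was the most abundant member in drought, with 2918 FPKM in control and 4539 in drought (ratio 0.64). A second gene of the oxygen-evolving complex, Phvul.010G052300 (chromosome 10, 8294379 to 8297353), a calcium-binding gene of the thylakoid lumen, had 332 and 830 FPKM (ratio 1.32). Among all members, 12 genes with the term oxygen evolving complex passed the limit, with a median ratio of 0.59 and 11 above 0. Genes annotated to photosystem II without this term were also higher in drought. Phvul.009G081400 had 730 FPKM in control and 1095 in drought (ratio 0.58), and Phvul.009G228600 had 128 and 282 (ratio 1.13). Phvul.001G039200 had 544 and 656 FPKM (ratio 0.27), and these 3 genes have the same list of terms.

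The largest ratio in the group belonged to a rare transcript. Phvul.006G084300 (chromosome 6, 20276640 to 20278399) had 0.687 FPKM in control and 9.19 in drought (ratio 2.59). Its terms name electron transfer in the cyclic pathway of photosynthesis, and its ortholog in Arabidopsis is PQL3, a PsbQ-like protein of the chloroplast NADH dehydrogenase-like complex.

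Electron transport genes outside the photosystems differed little. The 5 genes had a median ratio of 0.13, and none passed 2-fold in either direction. Phvul.004G000400, annotated to ferredoxin:thioredoxin reductase activity, through which reduced ferredoxin regulates chloroplast enzymes, had 586 FPKM in control and 729 in drought (ratio 0.32). Phvul.009G186200, of the NAD(P)H dehydrogenase complex that returns electrons to plastoquinone, had 91.6 and 139 FPKM (ratio 0.60). Phvul.009G202100, annotated to electron transport in photosystem I, had 138 and 139 FPKM (ratio 0.01).

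The carbon metabolism group (27 genes, 22 passed) had a median ratio of 0.19, with 13 genes above 0, 2 at least 2-fold higher and 2 at least 2-fold lower. Its clearest pattern was a difference in opposite directions within 1 set of genes. Phvul.001G234300, Phvul.008G192400 and Phvul.010G016000 have the same list of terms, which includes ATP binding, enzyme regulator activity and the chloroplast stroma. Arabidopsis rubisco activase, which restores the activity of the carbon-fixing enzyme, is known for these properties, but the table names none of the 3 genes. Their lists break off within a term that starts with ribulose-1.

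Phvul.001G234300 (chromosome 1, 49528435 to 49531638) had 983 FPKM in control and 2315 in drought (ratio 1.23). Phvul.008G192400 (chromosome 8, 49874652 to 49878008) had 1368 and 680 FPKM (ratio -1.01), and Phvul.010G016000 (chromosome 10, 2545334 to 2548462) had 74.3 and 34.8 FPKM (ratio -1.07). The order of the 2 abundant genes was therefore reversed between the libraries. Phvul.001G234300 held 40.5% of the set's FPKM in control and 76.4% in drought, while the sum of the set was 2425 FPKM in control and 3029 in drought. The ratios of the latter pair were -0.91 and -0.98 after scaling to the upper quartile, so that neither passed 2-fold there, and the ratio of Phvul.001G234300 was 1.33. How far reads were divided between these genes was not tested.

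Other abundant genes of carbon metabolism stayed within 2-fold. Phvul.002G232300, a triose phosphate transporter that exports the product of carbon fixation from the chloroplast, had 446 FPKM in control and 543 in drought (ratio 0.28). Of the genes for carbonate dehydratase, which interconverts carbon dioxide and bicarbonate, Phvul.004G013500 had 210 and 248 FPKM (ratio 0.24). The 3 genes for aconitate hydratase, an enzyme of the citric acid cycle, had lower levels in drought: Phvul.002G105000 had 236 and 122 FPKM (ratio -0.94), Phvul.005G115100 had 93.9 and 55.7 (ratio -0.74), and Phvul.011G103700 had 20.5 and 13.9 (ratio -0.52). None of these reached 2-fold. Phvul.006G145300, annotated to phosphofructokinase activity in glycolysis, was a low gene with 0.938 FPKM in control and 5.48 in drought (ratio 1.74). Phvul.003G082000, with the same list of terms, was the more abundant of the pair and had 22.1 and 20.1 FPKM (ratio -0.13).

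In the group for pigment and quinone synthesis, 10 of 11 genes passed the limit, with a median ratio of 0.26 and 7 above 0. None was 2-fold higher and 2 were 2-fold lower, and the sum was 666 FPKM in control and 634 in drought. Phvul.005G064200 (chromosome 5, 9590609 to 9595097), with terms for a prenyl transferase of ubiquinone synthesis, had 199 FPKM in control and 88.7 in drought (ratio -1.16). Magnesium chelatase places magnesium in the ring of the chlorophyll precursor, and 4 of the 5 genes with this annotation had a ratio above 0, between 0.22 and 0.41. Phvul.006G178400 had 122 and 163 FPKM (ratio 0.41), whereas Phvul.007G252700 (chromosome 7, 49124341 to 49130531) had 39.2 and 16.5 (ratio -1.20). Phvul.002G281900, for the methyltransferase that acts on magnesium protoporphyrin, the next step of the path, had 79.5 and 95.6 FPKM (ratio 0.26).

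Genes for RNA binding and translation had a median ratio near that of all genes. The median of the 11 genes was 0.05, beside -0.03. Of these genes, 9 (81.8%) lay above 0, beside 48% of all genes. Phvul.007G150700, an RNA-binding gene of the chloroplast, had 332 FPKM in control and 520 in drought (ratio 0.65), and Phvul.003G206700, also annotated to RNA binding, had 294 and 335 (ratio 0.19). Phvul.011G011500, a structural constituent of the ribosome, had 441 and 346 FPKM (ratio -0.35). The gene past 2-fold was Phvul.002G140400, with RNA binding and plastid transcription among its terms, at 21.4 and 45.6 FPKM (ratio 1.06).

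The 12 transcription factor genes, of which 9 passed the limit, had a median ratio of -0.15, with 2 at least 2-fold higher and 1 at least 2-fold lower. Phvul.007G044500 (chromosome 7, 3533950 to 3534754), a zinc-binding factor with terms for responses to water deprivation, cold and high light, had 99.2 FPKM in control and 33.2 in drought (ratio -1.55). Phvul.009G070800, which has the same list of terms, had 47.9 and 42.9 FPKM (ratio -0.15). Phvul.001G026700, also with this list, had 50.4 and 35.2 FPKM (ratio -0.51). Phvul.009G043100 (chromosome 9, 8430029 to 8432516), annotated to responses to hypoxia and bacteria, had 20.0 and 60.6 FPKM (ratio 1.55). Phvul.008G081800, of the same set, had 36.0 and 68.3 (ratio 0.90). Phvul.001G059800 was the only member with the term for the dark reaction of photosynthesis, and it had 36.5 FPKM in control and 24.7 in drought (ratio -0.54).

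The genes with the greatest differences of all carried photosynthesis terms but are annotated to processes other than light capture. Phvul.009G227800 (chromosome 9, 33650736 to 33651892) had 4.98 FPKM in control and 565 in drought, a 114-fold difference (ratio 6.57). Phvul.003G131400 (chromosome 3, 32093598 to 32094587) had 2.01 and 182 FPKM, a 90.5-fold difference (ratio 5.92). Both are annotated to nutrient reservoir activity, manganese binding, oxalate oxidase activity and the apoplast, the space outside the plasma membrane, as germins are, with photosynthesis, light reaction in the list. Neither has a chloroplast term. Of the other 2 genes with the same terms, Phvul.010G129600 was listed at 0 in control and at 1.14 FPKM in drought, and Phvul.010G129800 at 0 in both. The sum of the 4 genes was 6.99 FPKM in control and 748 in drought, which is 0.0231% and 1.93% of the FPKM of all members.

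The opposite direction was seen in the genes for ferric iron binding. Of 5 genes, 4 passed the limit, none of these lay above 0, and their median ratio was -0.91. Phvul.008G093700 (chromosome 8, 9621457 to 9624278), whose Arabidopsis ortholog is the ferritin FER1, an iron store of the chloroplast, had 312 FPKM in control and 23.9 in drought, a 13.0-fold difference (ratio -3.65). It was the only member past 4-fold in this direction. Phvul.010G065600, with the same list of terms, had 71.2 and 30.7 FPKM (ratio -1.19), and Phvul.008G221200 had 177 and 114 (ratio -0.63). Phvul.001G245700 hardly differed, at 103 and 101 FPKM (ratio -0.04), a value whose sign turned after rescaling. The sum of the group was 663 FPKM in control and 269 in drought.

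**Figure D4:**
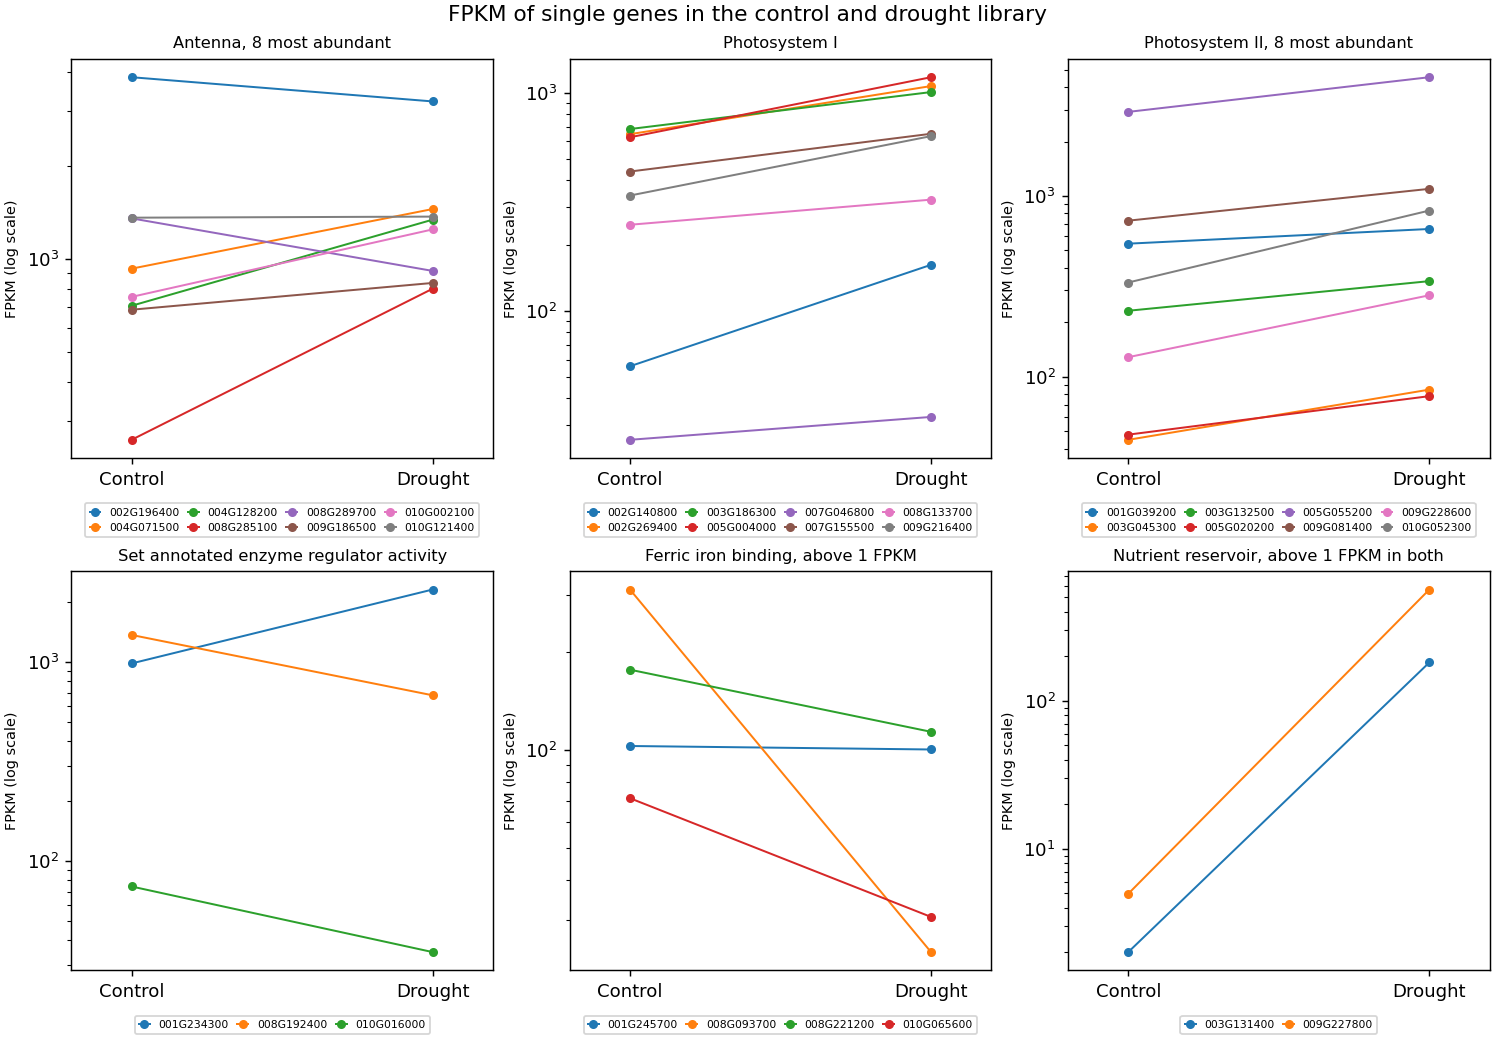
FPKM (vertical axes, log scale) of single genes in the control and the drought library, each line joining the 2 values of 1 gene; identifiers are given without their prefix. The lines of the photosystem I genes all run upward, those of the set annotated to enzyme regulator activity cross, and the panels for ferric iron binding and nutrient reservoir activity run in opposite directions.

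The remaining 46 genes, of which 45 passed, had no shared role. Their median ratio was 0.21, with 32 above 0, 4 at least 2-fold higher and none 2-fold lower. Abundant examples were Phvul.006G065100, a thylakoid gene with 209 FPKM in control and 252 in drought (ratio 0.27), Phvul.006G198500, for an inorganic diphosphatase, with 135 and 184 (ratio 0.44), and Phvul.005G021000, for the mitochondrial ATP synthase, with 158 and 140 (ratio -0.17). Phvul.006G035000, with the term N-acetyltransferase activity, was a low gene with 2.36 and 11.9 FPKM (ratio 1.94). Phvul.009G008400, a calcium-binding gene of the thylakoid lumen, had 20.5 and 49.8 FPKM (ratio 1.24). Phvul.011G061600, of the chloroplast nucleoid, had 90.4 and 184 (ratio 1.02). Phvul.001G177000, whose Arabidopsis ortholog is the water channel RD28, had 0.330 and 3.15 FPKM (ratio 1.64).

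By photosynthesis term, the members annotated to the light reaction lay highest. Of 61 such genes that passed, 52 (85.2%) were above 0, beside 48% of all genes, with a median ratio of 0.41. At least 2-fold higher were 9 and at least 2-fold lower 3, beside 11.7% and 6.6% of all genes. The higher genes included Phvul.009G227800 and Phvul.003G131400 of the nutrient reservoir group. The 106 genes with the unqualified term photosynthesis had a median of 0.28, and the 24 with light harvesting one of 0.31. The 6 genes for light harvesting in photosystem II had a median of -0.04, and their sum, carried almost wholly by Phvul.002G196400, was 3891 FPKM in control and 3253 in drought. These terms overlap, and a gene can be counted under several.

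The members were also divided by their annotated location. Members with a thylakoid term (93 passed) had a median ratio of 0.32, and those without (63 passed) one of 0.15. Members with a chloroplast term (132 passed) had a median of 0.30, and the 24 without one of 0.11. Among all the terms held by at least 10 members that passed, the highest median belonged to response to red light (0.68 over 18 genes, 16 above 0). Responses to far red light, blue light and sucrose followed at 0.64, whereas response to high light intensity was at 0.10 (13 genes, 8 above 0). The lowest medians belonged to response to abscisic acid (-0.25 over 11 genes, 3 above 0) and to mitochondrion (-0.24 over 21 genes, 7 above 0).

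Neighbouring lists of genes, counted without the members, place these values. Of all genes, 48% lay above 0, 11.7% were at least 2-fold higher and 6.6% at least 2-fold lower. The 148 photosystem II assembly genes that passed had a median ratio of 0.23, with 97 (65.5%) above 0. Of these 148 genes, 17 were at least 2-fold higher and 7 at least 2-fold lower. Genes for photosynthetic electron transport (50 passed) had a median of 0.44, with 39 above 0, 10 at least 2-fold higher and 2 at least 2-fold lower. Those for chlorophyll biosynthesis (94 passed) had a median of 0.20, and all 6 of the reductive pentose-phosphate cycle, which fixes carbon dioxide, were above 0, with a median of 0.28. Photorespiration genes and lists with a wider reach were close to the value of all genes. The median was -0.05 for photorespiration (150 passed), 0.05 for other thylakoid genes (535 passed), -0.06 for other chloroplast genes (3038 passed) and -0.10 for responses to light (562 passed). The lists overlap with each other, and the differences between them were not tested.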

How the data were processed

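The authors sequenced poly(A) RNA of PS as short single-end reads and obtained FPKM with the TopHat and Cuffdiff workflow. The submitters' processing notes also name CASAVA 1.8.2 and FastQC. The deposited FPKM values, 1 per gene and condition, are scaled to length and to the mapped reads of the library, so they are relative levels. The deposited table also holds Cuffdiff's fold change, test statistic, p-value and q-value, which were not used. Of the columns with values of a sample, 0 were left out.

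Levels were read from the deposited table with Python 3.11.15 and pandas 2.3.3, and plots were made with matplotlib 3.10.9. The log2 ratio used a pseudocount of 1 FPKM, so it understates the change of low genes. Genes that reached 1 FPKM in control or drought were described, with limits of 2-fold and 4-fold. The calculation was tested on simulated data. Low FPKM values did not give whole reads: of 1027 low genes, the most frequent ratio between the libraries occurred in 5.

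Named genes were the 10 members with the highest mean FPKM, the 8 highest and 8 lowest ratios among members that reached 10 FPKM, those past 4-fold, and the 3 most abundant of each role. Any other named gene was chosen after its values were seen. The members and lists were chosen with earlier results of these data known, and the 11 roles were assembled from GO terms after values were seen. Roles come from these terms. Arabidopsis orthologs are those of the study's supplementary tables. GO terms were present for 90.3% of genes. In 227 genes, 13 of them members, the list of terms stops at 1024 characters, and 7 members share their locus with another gene. Coordinates are as deposited. The identifiers and the stated annotation carry different versions, so the build was not settled and no sequence was read. A search for promoter motifs had been planned and was not run.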

Additional observations from a re-analysis of the deposited data

How the results depend on the processing

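The median ratio of the photosynthesis genes stayed above that of all genes under each alternative tried, between 0.25 without a filter and 0.38 after scaling to the upper quartile. The latter and scaling to the sum moved the median of all genes by 0.09. With the single term photosynthesis, fewer genes were counted, and 11 of 106 (10.4%) were 2-fold higher, beside 11.7% of all genes. In that setting 4 (3.77%) were 2-fold lower, beside 6.6%, and 73 (68.9%) lay above 0, beside 48%. With the photosystem II assembly genes kept, 29 of 205 (14.1%) were 2-fold higher, beside 11.7%. At 4-fold, 3 of the 156 genes (1.92%) were higher, beside 2.48% of all genes, and 1 (0.641%) was lower, beside 1.62%. At 1.5-fold, 43 (27.6%) were higher, beside 20.9% of all genes, and 14 (8.97%) were lower, beside 14.8%. The count of genes above 0 was chosen after seeing the data. Across the scalings and pseudocounts, 2 of the 47 named genes moved in size, both at low levels, and none past 2-fold reversed. Phvul.010G129600 was listed at 0 in control, and its ratio was 3.64 with a pseudocount of 0.1 and 6.85 with 0.01. For Phvul.006G084300, the values were 3.56 and 3.72 in place of 2.59. With 1 library per condition, no library could be left out. No paired analysis was possible because each condition has 1 library and no test was run. Low genes are limited most by the number of reads behind each value, which is unknown here.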

Other observations

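Many members have identical lists of GO terms, as far as the lists run. There were 36 such sets with 96 genes, and in 33 sets at least 2 genes passed the limit of 1 FPKM. The median range of the log2 ratio within a set was 0.54. It was at least 1 in 11 sets, and in 14 sets genes lay on both sides of 0. By this ratio, a single set held genes past 2-fold in both directions, the one of Phvul.001G234300 and Phvul.008G192400. After scaling to the upper quartile, Phvul.008G192400 (-0.91) and Phvul.010G016000 of this set fell short of 2-fold (-0.98). Without the pseudocount, Phvul.005G064200 was 2.25-fold lower and Phvul.002G108500, with the same list, 2.13-fold higher. Likewise, Phvul.010G057900 was 2.35-fold lower and Phvul.009G043100, of its set, 3.03-fold higher. In a set of 8 transcription factors, of which 5 passed, the ratio ran from -0.75 in Phvul.010G057900 (2.41 FPKM in control and 1.03 in drought) to 1.55 in Phvul.009G043100 (20.0 and 60.6 FPKM). In this set and in that of Phvul.001G234300, every list breaks off at its length limit. The lists of these genes are therefore known to be the same only up to that point. In the pair annotated to magnesium chelatase, Phvul.001G132200 had 74.9 and 87.3 FPKM (ratio 0.22) beside 39.2 and 16.5 in Phvul.007G252700. Phvul.005G085800, at 90.2 and 148 FPKM (ratio 0.70), shares its list with Phvul.011G155700, at 181 and 116 (ratio -0.64). These genes were chosen after their values were seen, and reads that fit several copies can be divided between them.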
